A study of Mus musculus with 18 samples.

Results

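Rod bipolar cells and the other ON bipolar cells carry the signal of photoreceptors to the inner retina. In the dark, glutamate acts on the receptor mGluR6 (Grm6), whose G protein keeps the cation channel Trpm1 closed, and nyctalopin (Nyx), a leucine-rich repeat protein of the dendritic tips, holds receptor and channel together. The genes described here are 10 genes of this cascade and of bipolar cell identity: Grm6, Trpm1 and Nyx of the cascade, the G protein gamma subunit Gng13, the signalling proteins Prkca (protein kinase C alpha, the classical marker of rod bipolar cells), Pcp2 (a modulator of G proteins) and Cabp5 (a calcium-binding protein), Car8 (a carbonic anhydrase-related protein), and the homeodomain factors Sebox and Vsx1, of which Vsx1 marks cone bipolar cells. They were chosen by name, and each was followed on every probe set that carries its symbol alone. On the array, 9 of the 10 genes had such a probe set, among 18193 genes with one, and Grm6 was not analysed here. The 9 genes have 22 probe sets, and the one with the highest mean over 18 arrays leads for each gene. By RefSeq (GRCm38.p6), Prkca and Sebox lie on chromosome 11, Trpm1 and Cabp5 on 7, Pcp2 on 8, Gng13 on 17, Vsx1 on 2, Nyx on X, and Car8 on 4, which also holds Plk3.

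The RNA came from whole retinas of mice labelled C57Bl/6, either Plk3-KO, which lack a 5' part of the polo-like kinase gene Plk3 in all tissues, or WT littermates. There were 3 arrays for each genotype at postnatal day 0 (P0), postnatal day 7 (P7) and in the adult, 18 in all, and the labels give no age in days for the adult. By the study's methods the line had carried the retinal degeneration allele of Pde6b and was crossed to C57Bl/6 until litters were free of it. The study's text calls its replicates biological, but the labels tie no array to an animal, so p-values measure the spread between these arrays. Values are log2 signals, in which a step of 1 is a doubling, and 7 is the methods' minimum for a gene to count as expressed. In whole retinas, fewer cells of a type and less RNA per cell cannot be told apart. The single Plk3 probe set reads the 3' end, which the deletion leaves, and so checks nothing about the deletion. It read 8.0, 8.2 and 7.5 in Plk3-KO and 6.4, 6.9 and 7.3 in WT retinas at P0, and 7.4, 8.0 and 7.7 against 5.9, 3.9 and 5.8 in the adult. At P7 it read 8.1, 6.1 and 7.7 against 6.0, 6.3 and 6.0, so that P7 Plk3-KO array 2 lay among the WT arrays. All 4 rod markers measured stood above 14 on every adult array. Lens crystallin Cryaa ranged from 2.7 to 14.6 over the 18 arrays. Adult Plk3-KO array 3 stood apart, with an array median of 7.2 and an excess of the 3' over the 5' actin signal of 2.7. That excess was 1.6 to 1.8 on the other adult arrays. Adult WT array 3 had an array median of 7.0, and the remaining adult arrays 6.3 to 6.5.

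Bipolar cells are among the last retinal neurons to be born in the mouse, and the question asked first was when each gene came on. Between P0 and P7, 8 of the 9 genes rose in WT retinas, and between P7 and the adult 7 rose, while none fell in either step. In Plk3-KO retinas 7 rose in the first step and 6 in the second. Of all 45037 probe sets tested, 5.08% rose in the first step in WT and 4.96% in Plk3-KO retinas, and 4.11% and 4.27% rose in the second. In the first step 4.31% fell in WT and 4.74% in Plk3-KO retinas, and in the second 4% and 4.62%. Whether 0 falls among 9 genes is fewer than such shares would give was not tested. A rise here is a difference above 0 with an adjusted p under 0.05 in limma, and a fall is one below 0. Both steps share the P7 arrays, so they are not independent of each other. Taking both genotypes together, all 6 P7 arrays lay above all 6 P0 arrays for 8 genes, where 6.81% of all probe sets did so, and all adult arrays lay above all P7 arrays for 6 genes, where 5.41% did so. The exceptions were Trpm1 in both steps, and Prkca and Vsx1 in the second.

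**Figure D1:**
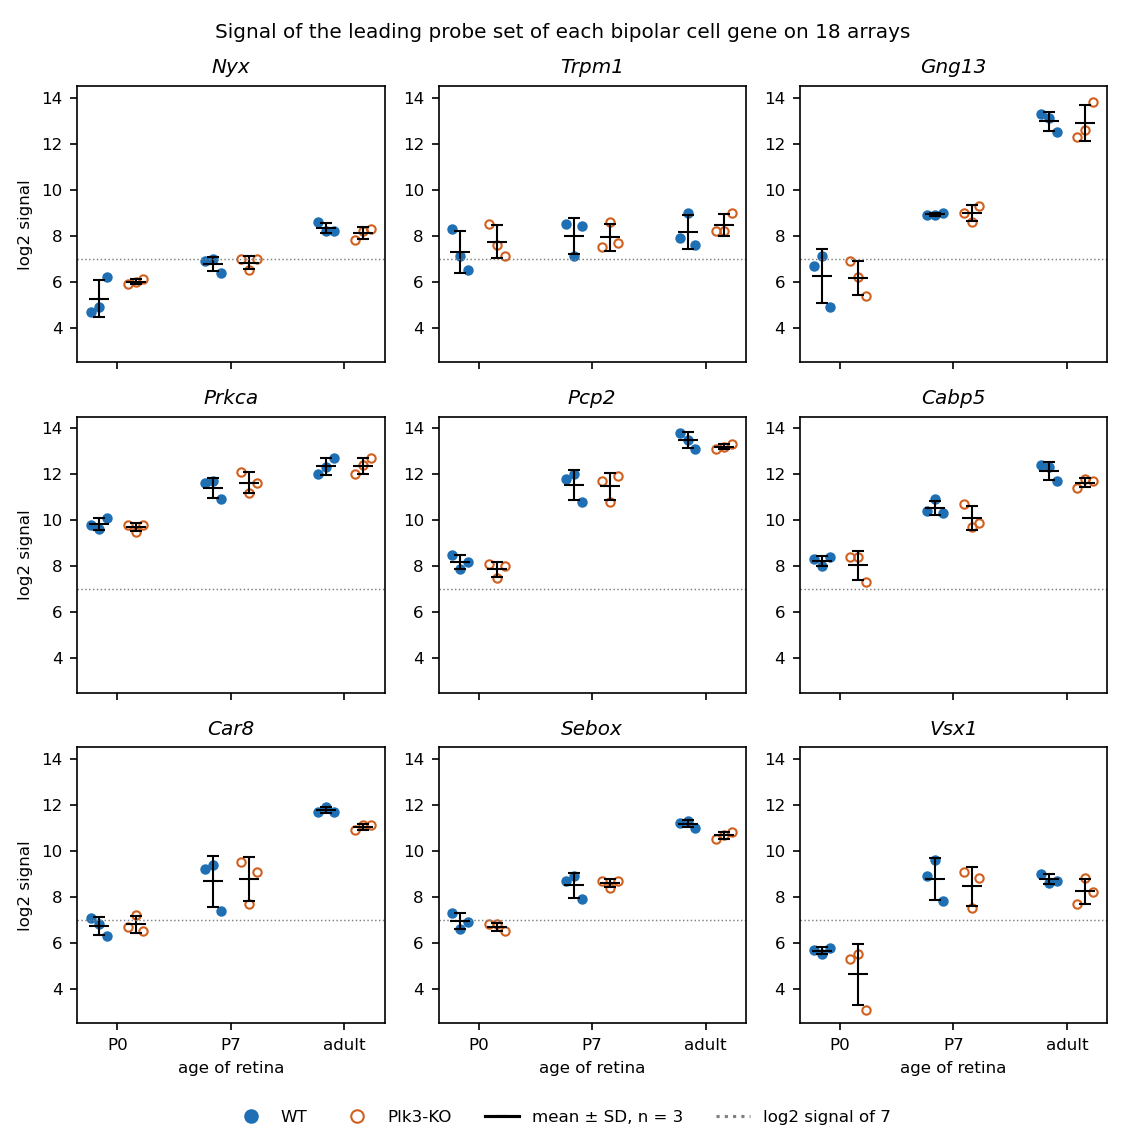
Log2 signal (vertical axis) of the leading probe set of each gene at P0, P7 and in the adult (horizontal axis), with 3 arrays per genotype, WT filled and Plk3-KO open. Bars give the mean ± SD of 3 arrays and the dotted line the minimum of 7. All genes but Trpm1 had all P7 arrays above all P0 arrays, and Vsx1 stood in the adult where it had stood at P7.

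Gng13, whose product is a gamma subunit of G proteins, rose furthest. The WT arrays read 6.7, 7.1 and 4.9 at P0, 8.9, 8.9 and 9.0 at P7, and 13.3, 13.1 and 12.5 in the adult. In Plk3-KO retinas they read 6.9, 6.2 and 5.4, then 9.0, 8.6 and 9.3, then 12.3, 12.6 and 13.8. The ages did not overlap in either genotype, and the genotypes overlapped at each age. The rise from P7 to the adult was 4.03 (SE 0.494, limma adjusted p = 6.33e-05) in WT and 3.93 in Plk3-KO retinas. Since the P0 means lay under 7, the adult level is given against that minimum and was at least 62.5-fold higher in WT and at least 59.7-fold higher in Plk3-KO retinas.

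Pcp2, which acts on the Go family of G proteins, had the largest first step of the genes with a P0 mean above the minimum. Its WT arrays stood at 8.5, 7.9 and 8.2 at P0, at 11.8, 12.0 and 10.8 at P7 and at 13.8, 13.5 and 13.1 in the adult. The first step was 3.33 (SE 0.317, limma adjusted p = 2.16e-06) in WT and 3.60 in Plk3-KO retinas, and the second was 1.93 and 1.73, all of which passed. From P0 to the adult Pcp2 was 38.5-fold higher in WT and 40.3-fold higher in Plk3-KO retinas. Whether the steps of a gene differed in size was not tested.

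Prkca was above the minimum on every array, from 9.5 to 10.1 at P0, with a median of 9.80. It rose by 1.57 (SE 0.271, limma adjusted p = 0.000900) in WT and by 1.93 in Plk3-KO retinas by P7. The adult arrays read 12.0, 12.3 and 12.7 in WT and 12.0, 12.4 and 12.7 in Plk3-KO retinas, so that the genotypes lay on top of each other. Later Prkca gained 0.93 in WT retinas (limma adjusted p = 0.0415), while its difference of 0.73 in Plk3-KO retinas did not pass (limma adjusted p = 0.106). The second step lost its call in WT retinas in 17 of 29 other settings.

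Cabp5, a calmodulin-like protein of bipolar cells, read 8.3, 8.0 and 8.4 at P0, 10.4, 10.9 and 10.3 at P7 and 12.4, 12.3 and 11.7 in the adult WT retina. Plk3-KO arrays read 8.4, 8.4 and 7.3, then 10.7, 9.7 and 9.9, then 11.4, 11.8 and 11.7. No age overlapped the next. Both steps passed in both genotypes, at 2.30 (SE 0.312) and 1.60 in WT and at 2.07 and 1.53 in Plk3-KO retinas, and the adult was 14.9-fold and 12.1-fold above P0.

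Car8, a relative of the carbonic anhydrases without their enzyme activity, was at or near the minimum at P0, with a highest array of 7.2. Its WT arrays then read 9.2, 9.4 and 7.4 at P7 and 11.7, 11.9 and 11.7 in the adult, and its Plk3-KO arrays 9.5, 7.7 and 9.1, then 10.9, 11.1 and 11.1. Array WT 3 and Plk3-KO 2 were the low ones at P7, and in the adult the genotypes did not overlap. The second step was 3.10 (SE 0.461, limma adjusted p = 0.000411) in WT and 2.27 in Plk3-KO retinas, and the first was 1.93 and 1.97. The adult Car8 level was at least 27.2-fold in WT and at least 16.4-fold in Plk3-KO retinas above the minimum.

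Sebox, a homeodomain gene, stood at 7.3, 6.6 and 6.9 in WT retinas at P0, at 8.7, 8.9 and 7.9 at P7, and at 11.2, 11.3 and 11.0 in the adult. Its second step was 2.67 (SE 0.257, limma adjusted p = 6.72e-06) in WT and 2.07 in Plk3-KO retinas, after a first step of 1.57 and 1.90, and all 4 passed. Vsx1, the cone bipolar factor, read 5.7, 5.5 and 5.8 in WT retinas at P0, 8.9, 9.6 and 7.8 at P7 and 9.0, 8.6 and 8.7 in the adult. Plk3-KO arrays for Vsx1 read 5.3, 5.5 and 3.1, then 9.1, 7.5 and 8.8, then 7.7, 8.8 and 8.2. It rose by P7, by 3.10 (SE 0.579, limma adjusted p = 0.00175) in WT and 3.83 in Plk3-KO retinas, and since the P0 levels lay under 7 the size of this rise is not firm. From P7 to the adult Vsx1 differed by 0.00 in WT, with a 95% interval from -1.22 to 1.22, and by -0.23 in Plk3-KO retinas.

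Nyx, the nyctalopin gene, had means above the minimum only in the adult. Its arrays ranged from 4.7 to 6.2 at P0, from 6.4 to 7.0 at P7 and from 7.8 to 8.6 in the adult, and the ages did not overlap. The second step passed in both genotypes, at 1.57 in WT (limma adjusted p = 0.0156) and 1.27 in Plk3-KO retinas (limma adjusted p = 0.0450), and the latter lost its call in 16 of 29 other settings. The first step passed in WT retinas (1.5, limma adjusted p = 0.0163), where the difference of 0.83 in Plk3-KO retinas did not (limma adjusted p = 0.216). The first steps themselves differed by -0.67 (SE 0.535, limma adjusted p = 1), so that no difference between genotypes was shown.

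**Figure D2:**
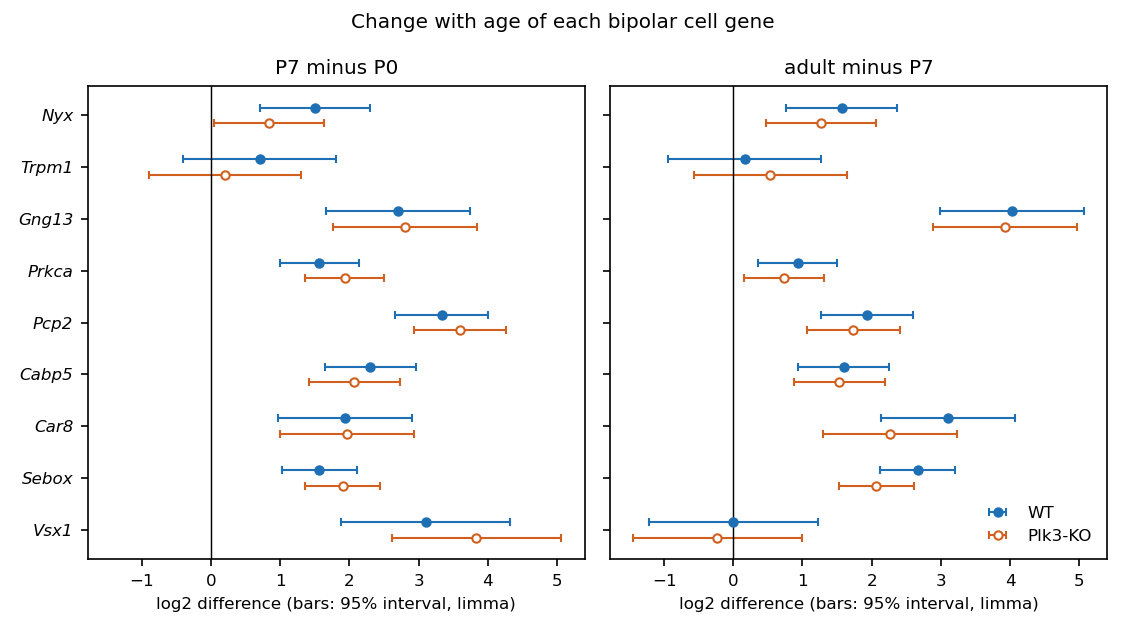
Log2 difference between P7 and P0 (left) and between the adult and P7 (right) for each gene, WT filled and Plk3-KO open, with 95% intervals from limma. The intervals of Trpm1 include 0 in both panels and those of Vsx1 in the right one, and the intervals of both genotypes overlap for every gene.

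Trpm1, the channel at the end of the cascade, was the exception. On its leading probe set the WT arrays read 8.3, 7.1 and 6.5 at P0, 8.5, 7.1 and 8.4 at P7, and 7.9, 9.0 and 7.6 in the adult. The Plk3-KO arrays read 8.5, 7.6 and 7.1, then 7.5, 8.6 and 7.7, then 8.2, 8.2 and 9.0. All ages overlapped. The differences were 0.70 and 0.17 in WT and 0.20 and 0.53 in Plk3-KO retinas, with a limma adjusted p from 0.508 to 0.899, and none of the other 3 Trpm1 probe sets passed in any of these steps. On those, adult means reached 8.0 on 1437445_at and stayed under 7 on 1440241_at and 1437531_at. The 95% interval of the adult minus P7 difference in WT ran from -0.94 to 1.27, so that a rise of the size seen for Gng13, Car8 or Sebox lay outside it. That of the P7 minus P0 difference in WT ran from -0.40 to 1.80. It included rises of the size that Nyx, Prkca and Sebox showed in that step.

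Trpm1 is also made by melanocytes, and retinas can carry pigmented cells from the layer behind them. The pigment epithelium markers Rpe65, Rgr, Ttr and Tyr were all measured, and the mean of the 4 log2 values ranged on P0 arrays from 5.68 to 6.90 in WT and from 6.00 to 6.63 in Plk3-KO retinas. At P7 it ranged from 9.58 to 10.53 and from 9.18 to 10.80, and in the adult from 11.28 to 12.10 and from 11.90 to 12.48. All 4 rose from P0 to P7 in WT retinas and 3 of 4 in Plk3-KO retinas. Rpe65, the retinoid isomerase that defines this epithelium, lay between 1.3 and 3.0 on every P0 array. Tyr, the pigment enzyme tyrosinase, stood in WT retinas at 7.3, 7.2 and 6.4 at P0, at 8.4, 9.0 and 8.3 at P7 and at 8.4, 9.6 and 7.9 in the adult. Among adult WT arrays, array 2 was the highest for Tyr and for Trpm1, and array 3 the lowest for both. In P0 WT, P0 Plk3-KO and P7 Plk3-KO retinas the arrays also came in the same order for both genes. Among P7 WT arrays, array 2 was the highest for Tyr and the lowest for Trpm1. In adult Plk3-KO retinas Tyr read 8.8, 8.2 and 8.8, and Trpm1 8.2, 8.2 and 9.0. Rpe65, Rgr and Ttr kept the order of Trpm1 in P7 Plk3-KO retinas. In P0 Plk3-KO retinas Rpe65 kept it, and Rgr and Ttr did not. None of these markers kept it in P0 WT retinas, where Ttr read 8.2, 10.7 and 9.5 and Rgr 5.6, 8.2 and 6.7. Among adult WT arrays, array 1 was the highest for Rpe65, Rgr and Ttr. The part of pigmented cells in the Trpm1 signal was not tested.

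**Figure D3:**
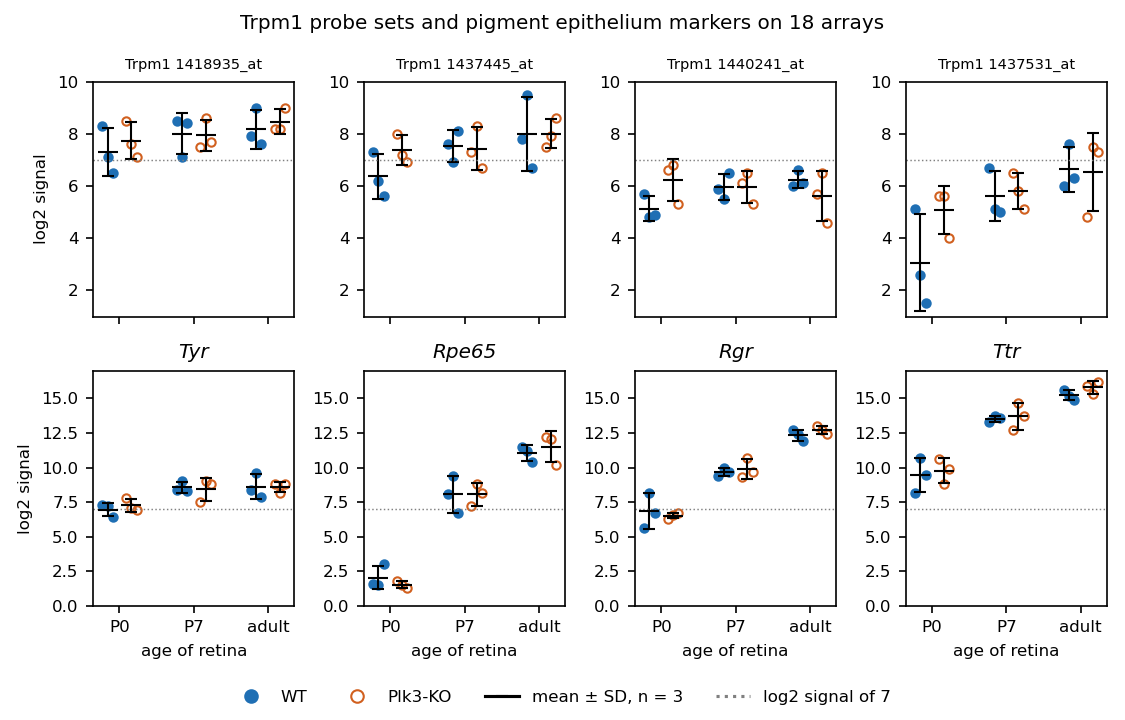
Log2 signal of the 4 Trpm1 probe sets (top) and of 4 pigment epithelium markers (bottom) on 18 arrays by age, WT filled and Plk3-KO open, with mean ± SD of 3 arrays and a dotted line at 7. Trpm1 values overlap between ages, while Rpe65, Rgr and Ttr climb with age.

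Further probe sets of the same genes, lower in mean by the rule, were read as a second look. Pcp2 on 1419084_a_at rose by 4.17 and then 1.80 in WT retinas, Sebox on 1450823_at by 2.23 and then 2.83, and all 4 differences passed in limma. In Plk3-KO retinas they rose by 4.40 and 3.40 by P7, and their later differences of 1.53 (adjusted p = 0.0564) and 1.67 (adjusted p = 0.0784) did not pass in limma. Cabp5 on 1421780_a_at rose by 1.67 by P7 and its later difference of 0.97 did not pass. Prkca differed by 0.63 and 0.80 on 1450945_at, with neither past the threshold. Signals of Gng13 on 1447282_at stayed under 7 on every array, as did those of Prkca on 1427562_a_at, so these genes rest on their other probe sets. Pcp2 on 1424944_at rose by 2.33 from P7 to the adult in WT retinas, and its earlier difference of 1.53 did not pass, nor did its later difference of 1.30 in Plk3-KO retinas (limma adjusted p = 0.177). Car8 ran from 3.2 to 5.2 at P0, from 4.5 to 6.6 at P7 and from 6.9 to 7.9 in the adult on 1424958_at, and from 0.9 to 5.2, 3.2 to 6.8 and 6.1 to 8.6 on 1457904_at, and no step passed on either. Vsx1 on 1422104_at lay between 2.0 and 2.7 at P0, between 2.5 and 7.3 at P7 and between 3.3 and 5.3 in the adult.

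The sequence before the start of each gene was searched for 3 short motifs, since most of the members rose in the same weeks. The 250 bases before the farthest upstream start that RefSeq gives (GRCm38.p6) were read for the 9 of 10 genes in the promoter table, which includes Grm6 and lacks Car8. They were searched on both strands for TAATCC, the core bound by Otx2 and Crx, for TAATTA, the core of many homeodomain factors, and for CAGNTG, an E-box. TAATCC stood in 2 of the 9, against 6.37% of 27025 promoters of that length, TAATTA in 0 of 9, against 4.91%, and CAGNTG in 5 of 9, against 44.5%. TAATCC and TAATTA share TAAT, and no site counted for both. Printed are the 2 promoters with TAATCC, Cabp5 (chr7:13397905-13398154, plus strand) and Trpm1 (chr7:64153585-64153834, plus strand), and those of the members that rose furthest, Gng13 (chr17:25716922-25717171, plus strand) and Pcp2 (chr8:3625548-3625797, minus strand). Each runs 5' to 3', and capitals mark TAATCC or its reverse complement.
Cabp5: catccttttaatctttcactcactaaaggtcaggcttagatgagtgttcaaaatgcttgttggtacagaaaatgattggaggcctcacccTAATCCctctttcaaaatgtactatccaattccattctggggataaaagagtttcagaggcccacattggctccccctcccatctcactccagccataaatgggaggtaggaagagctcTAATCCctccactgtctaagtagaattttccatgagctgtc
Trpm1: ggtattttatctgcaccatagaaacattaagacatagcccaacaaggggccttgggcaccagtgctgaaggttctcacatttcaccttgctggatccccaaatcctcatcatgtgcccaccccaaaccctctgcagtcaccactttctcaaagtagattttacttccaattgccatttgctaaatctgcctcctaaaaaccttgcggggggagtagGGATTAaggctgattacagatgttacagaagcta
Gng13: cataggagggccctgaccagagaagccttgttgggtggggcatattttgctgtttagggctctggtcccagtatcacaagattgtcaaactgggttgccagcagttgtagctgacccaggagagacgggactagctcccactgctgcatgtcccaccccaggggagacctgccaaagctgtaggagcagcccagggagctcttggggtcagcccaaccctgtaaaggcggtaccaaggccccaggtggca
Pcp2: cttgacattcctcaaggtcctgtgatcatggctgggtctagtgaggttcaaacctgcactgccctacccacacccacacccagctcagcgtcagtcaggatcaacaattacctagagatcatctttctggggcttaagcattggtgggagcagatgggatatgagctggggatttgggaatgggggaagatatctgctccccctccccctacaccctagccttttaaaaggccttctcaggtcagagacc
In Cabp5, which rose, the motif began 160 and 41 bases before the start, and in Trpm1, which did not pass in any step, 34 bases before it. Gng13 and Pcp2, with the largest rises, had none in this window.

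The next question was whether loss of Plk3 changed any of these genes. In limma 0 of the members passed at any age or in the mean over the 3 ages, of 9 tested in the adult, 8 at P7, 4 at P0 and 9 in the mean, and 0% of all tested probe sets were called in each of these comparisons. At an unadjusted p under 0.05 limma counted 0 members, against 4.8% of probe sets tested in the adult, 0.575% at P7, 0.376% at P0 and 1.58% in the mean. The methods' t-test, unadjusted, counted 2 members in the adult, Car8 and Sebox, against 3.14% of probe sets, and none at P7 or P0, against 1.17% and 2.22%. After adjustment it counted none. In the steps with age the same test, adjusted, called 2 and then 1 of the members in WT retinas, against 4.24% and 0.191% of probe sets, and 3 and then 1 in Plk3-KO retinas, against 4.87% and 0.251%. The members left untested had both means at or under 7. The 95% intervals of the adult differences reached from -1.79, for Vsx1, to 1.43, for Trpm1, so that changes of up to about that size lie within them.

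**Figure D4:**
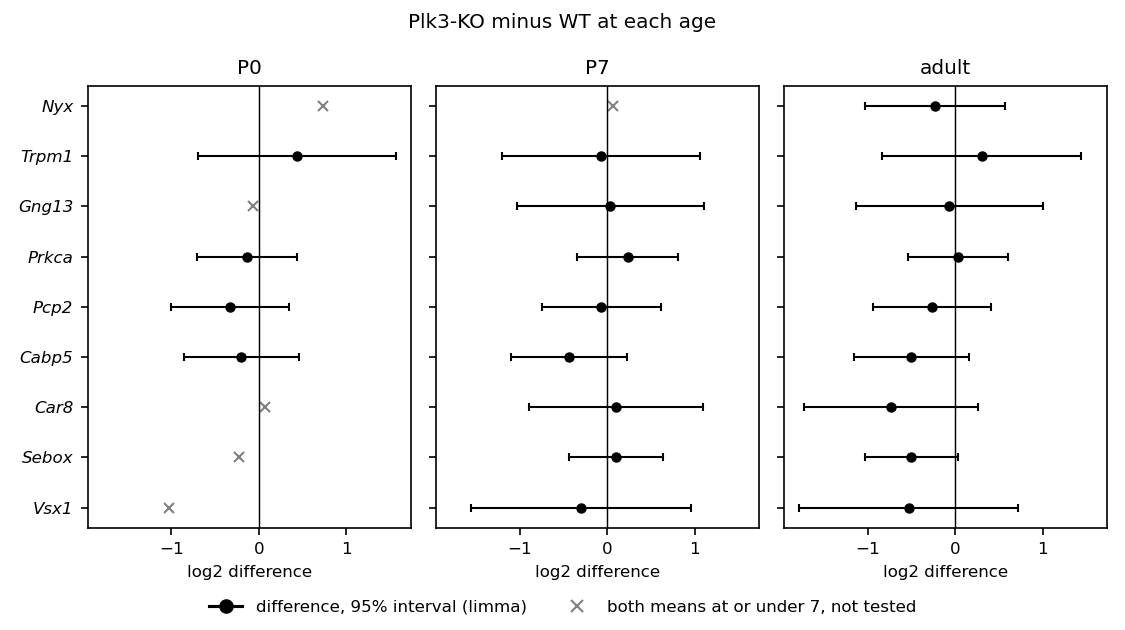
Log2 difference between Plk3-KO and WT retinas (horizontal axis) for each gene at P0, P7 and in the adult, with 95% intervals from limma. Crosses mark genes with both means at or under 7, which were not tested. Every interval includes 0, and in the adult 7 of 9 differences lie below it.

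In the adult, the Plk3-KO mean lay below the WT mean for 7 of the 9 genes and above it for Trpm1 and Prkca. The median difference was -0.27, where the median over all 21005 probe sets was -0.03 and 51.1% lay below 0. Over all 22 probe sets of these genes, 19 means were lower in Plk3-KO retinas. Every gene but Nyx has several probe sets, so these are not independent counts. Some of Trpm1, Prkca, Gng13 and Vsx1 had both means under 7 and are not among the 21005. Car8 showed the largest difference, at -0.73 (SE 0.470, limma adjusted p = 0.977), with Plk3-KO arrays from 10.9 to 11.1 and WT arrays from 11.7 to 11.9. Sebox differed by -0.50 (SE 0.252, limma adjusted p = 0.977), with Plk3-KO arrays at 10.5, 10.7 and 10.8 under WT arrays at 11.2, 11.3 and 11.0. For these 2 genes all Plk3-KO arrays lay below all WT arrays, as they did for 3.37% of all tested probe sets, with p = 0.1 in an exact two-sided permutation test, below which 3 arrays against 3 cannot go. The study had singled out Sebox and Car8 on these same arrays, so their direction is no independent evidence. By in situ hybridization for Sebox in adult retinas, the study reported no significant, reproducible difference. Its antibody stains of adult bipolar cells showed no qualitative difference either. On its leading probe set Cabp5 differed by -0.50, with 1 WT array at 11.7 within the Plk3-KO range of 11.4 to 11.8. For Vsx1 the difference was -0.53, for Pcp2 -0.27 and for Nyx -0.23, with overlapping arrays. Of the further probe sets, both of Car8 overlapped between genotypes, at -0.37 on 1424958_at and -1.27 on 1457904_at. Sebox on 1450823_at (-0.83), Cabp5 on 1421780_a_at (-0.67) and Vsx1 on 1422104_at (-0.93, with both means under 7) did not overlap, and the rest did.

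The adult arrays were not alike among themselves. Averaged over the 9 genes, each centred on its own mean, adult WT arrays stood at 2.03, 2.07 and 1.73 and Plk3-KO arrays at 1.37, 1.71 and 1.92. Plk3-KO array 1 was lowest, among the lowest 2 of 6 arrays for 8 of the 9 genes. How many of all probe sets were low on it was not counted. Plk3-KO array 3, which stands apart in its array median and actin ratio, lay among WT values. WT array 3, whose array median of 7.0 also stands apart, was the lowest WT array. Without Plk3-KO array 1, 2 or 3 the members' median difference was -0.22, -0.28 and -0.52. Without WT array 1, 2 or 3 it was -0.13, -0.30 and -0.45, and after quantile normalization of all arrays -0.27. All of these were tried after the data were seen. Markers of other cells were read in the same comparison, and limma called 0 of them. The adult differences of the 4 rod markers had a median of 0.35, all above 0, and those of 4 Müller glia and 4 amacrine markers had medians of -0.45 and -0.40, all below 0. The 2 lens genes tested, of 3, had a median of -2.17, both below 0. Cone, ganglion cell and pigment epithelium markers had medians of 0.17, -0.30 and 0.42. Their part in the members' differences was not tested.

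At P7 the differences fell on both sides of 0, 4 and 4 of the 8 tested, with a median of -0.02 against 0.00 over all probe sets. No member had all Plk3-KO arrays below all WT arrays, against 1.13% of probe sets. At P0 the median of the 4 tested was -0.17, against 0.00 over all probe sets. It was -0.01 without Plk3-KO array 3, -0.06 without WT array 3, -0.09 without Plk3-KO array 2 and -0.28 without either WT array 2 or Plk3-KO array 1, all tried after the data were seen. No member had all Plk3-KO arrays below all WT arrays, against 1.75% of probe sets. Vsx1 lay at 5.3, 5.5 and 3.1 in Plk3-KO and at 5.7, 5.5 and 5.8 in WT retinas at P0, all under the minimum. Over the 3 ages Vsx1 differed by -0.62 (SE 0.342) and Cabp5 by -0.38 (SE 0.180), with exact permutation p = 0.102 and 0.0635, and both had a limma adjusted p of 1. Without P0 Plk3-KO array 3 the difference of Vsx1 was -0.37, and with array weights that of Cabp5 was -0.19. The steps with age did not differ between genotypes past the threshold either: limma called 0 members and 0% of probe sets in either step, and 0 members had an unadjusted p under 0.05, against 1.24% of probe sets in the first step and 2.74% in the second. For the step from P7 to the adult the most negative contrasts were those of Car8, at -0.83 (SE 0.652), and Sebox, at -0.60 (SE 0.363). They share the adult arrays with the comparison above.

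At P7, 1 array of each genotype stood below the rest. Leaving Trpm1 aside, WT array 3 and Plk3-KO array 2 were together below the other 4 arrays for 6 of 8 genes, as they were for 27.5% of all probe sets. They are among the 4 arrays whose array medians stand apart, and the pattern was picked out after the data were seen. Car8 read 7.4 and 7.7 on them and 9.1 to 9.5 elsewhere, Vsx1 7.8 and 7.5 against 8.8 to 9.6, and Pcp2 10.8 on both against 11.7 to 12.0. Trpm1 went the other way, at 8.4 and 8.6 against 7.1 to 8.5. On the same arrays the mean of the 4 progenitor markers stood at 9.18 and 8.85 against 8.15 to 8.65 elsewhere, and Ccnd1, a cyclin among them, at 12.2 and 11.6 against 10.5 to 11.0. The mean of the 4 rod markers stood at 13.83 and 14.08 against 13.40 to 13.78, and that of the pigment epithelium markers at 9.58 and 10.80 against 9.18 to 10.53. Among the rod markers, Gnat1 read 10.2 and 11.3 against 10.2 to 12.5, while Pde6b, Nrl and Sag were higher on both arrays. The mean of the amacrine markers was lowest on both, at 10.8 and 10.6 against 11.0 to 11.3. Means of the cone, Müller glia and ganglion cell markers overlapped those of the other P7 arrays. Their array medians were 6.4 against 6.8 to 6.9, and their actin 3' over 5' excess was 1.6 against 0.8 to 1.1. Leaving out WT array 3 moved the members' median genotype difference at P7 to -0.32, and leaving out Plk3-KO array 2 moved it to 0.21, against -0.10 to 0.14 without any 1 of the other arrays, all tried after the data were seen. The part of any of these in the members' levels was not tested.

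**Figure D5:**
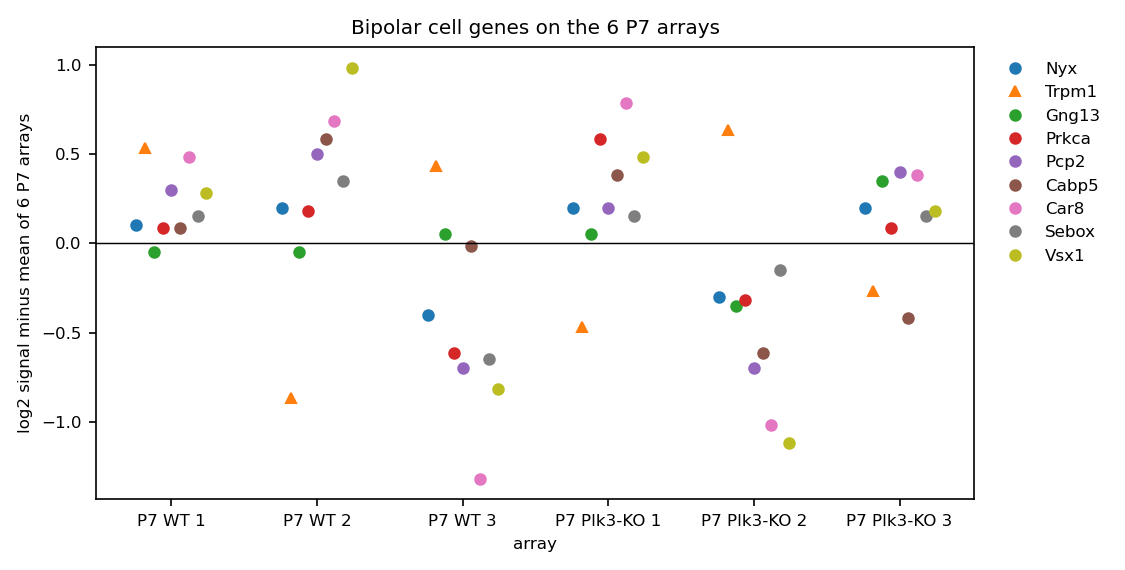
Log2 signal of each gene on each of the 6 P7 arrays, minus its mean over them. WT array 3 and Plk3-KO array 2 lie lowest for most genes, with Trpm1 (triangles) above 0 on both.

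Partners of the cascade, regulators and other bipolar cell genes were followed in 3 lists that hold none of the members. Of the mGluR6 cascade partners, 9 of 10 had a probe set. In WT retinas 6 of 9 rose from P0 to P7 and 5 from P7 to the adult, with medians of 1.40 and 0.93 against -0.17 and 0.03 over all probe sets, and none fell. Gnb5, the beta subunit that works with the RGS proteins, rose by 2.10 and then 1.73, and Gnb1 by 1.13 and then 1.47. Which cells of the whole retina these rises came from was not tested. Gnb3, the beta subunit of ON bipolar cells and cones, rose by 1.53 by P7 and then stayed level, at a difference of 0.00. Gnao1, the alpha subunit that mGluR6 acts through, differed by 0.53 and 0.93, with neither past the threshold. Rgs11, which speeds the shut-off of that subunit, rose by 1.40 and then 1.63, and is named after its values were seen. In Plk3-KO retinas 6 and 3 of 9 rose. Between adult genotypes 0 of 8 tested passed, with a median of -0.08, which ranged from -0.20 to 0.05 as each adult array was left out.

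Of 9 bipolar cell transcription factors with a probe set, 3 rose and 1 fell from P0 to P7 in WT retinas, and 0 rose and 1 fell from P7 to the adult. Over all probe sets, 5.08% rose and 4.31% fell in the first of these steps, and 4.11% rose and 4% fell in the second. Isl1, a factor of ON bipolar and other cells, rose by 1.07, and Prdm8 and Bhlhe23, named here after their values were seen, by 1.27 and 4.60. The WT means of Bhlhe23 stayed under 7, at 0.7, 5.3 and 6.9 at P0, P7 and in the adult, so the size of its rise is not firm. Irx5 fell by 2.30 in the first step, and Otx2, which photoreceptors share, fell by 0.73 in the second. Neurod4 did not pass in either step. In Plk3-KO retinas 1 rose and 2 fell, then 0 rose and 1 fell, which was Isl1, by 1.07. There 4.96% of all probe sets rose and 4.74% fell in the first step, and 4.27% rose and 4.62% fell in the second. Between adult genotypes 0 of 8 passed, and 7 differences lay below 0, with a median of -0.38, or -0.25 without Plk3-KO array 1.

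Of 10 other bipolar cell genes, 6 rose from P0 to P7 and 4 from P7 to the adult in WT retinas, and 3 and 4 in Plk3-KO retinas, and none fell. Scgn, the calcium sensor secretagogin, rose by 3.57 and then 1.27, and Tacr3, a neurokinin receptor of some OFF bipolar cells, by 1.10 and then 1.87. Lin7a, a scaffold protein, rose by 1.27 by P7. Gabrr2, a subunit of the GABA-C receptor at bipolar terminals, differed by 1.97 by P7, short of the threshold, and rose by 5.30 later, and is named after its values were seen. The WT means of Gabrr2 lay under 7 at P0 and P7, at 4.07 and 6.03, so the size of that rise is not firm. Vstm2b, a membrane protein, differed by 0.77 and then 1.00 in WT retinas (limma adjusted p = 0.285 and 0.135), neither past the threshold, and by -0.80 (SE 0.399, limma adjusted p = 0.977) between adult genotypes. Between adult genotypes 0 of 9 tested passed, with all 9 differences below 0 and a median of -0.57. Without adult Plk3-KO array 1 that median was -0.32, with 7 of 9 below 0.

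Likeness to the members' mean course was measured over 18 arrays as the root mean square difference between centred log2 values. Among the members, Cabp5 lay nearest to that course, at 0.26, and Trpm1 and Gng13 farthest, at 1.37 and 1.36. Each member is itself part of that course, so these distances are not comparable with those of other genes. Among 18184 other genes the 8 nearest were Slc12a5, Nefh, Scg2, Gramd1b, Cpne6, Vsnl1, Rbp3 and Eno2, from 0.29 to 0.34. Slc12a5, the potassium chloride transporter of neurons, had means of 10.53, 12.73 and 13.93 at P0, P7 and in the adult in WT retinas. Nefh, a neurofilament, had means of 7.33, 9.83 and 11.50, and Rbp3, the retinoid-binding protein that photoreceptors secrete, 11.90, 13.93 and 15.40.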

How the data were processed

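RNA of Plk3-KO and WT retinas was hybridised by the authors to Affymetrix mouse genome arrays. The deposited values are log2 MAS5 signals with 1 decimal, made by the authors with the affy package (version not given in the sources used here), and no normalization was added. Of 45101 probe sets, 64 controls were left out. Gene symbols came from the platform annotation, and 34945 of the remaining probe sets carry 1. The members and gene lists were chosen with earlier results of these data known.

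limma 3.58.1 (R 4.3.3) was run on the 18 arrays together (1 mean per group, 6 groups, with a variance trend), with Benjamini-Hochberg adjustment over all probe sets tested at 0.05. Genotypes were compared over probe sets with a mean above 7 in either genotype (at any age for the mean over ages), and ages over all 45037. The fit was tested on simulated data. Named genes were all members and probe sets, Plk3, the 4 brightest genes of each list (any called between genotypes first) and the 8 nearest in course; others are marked. Lists covered cascade partners, transcription factors and other bipolar genes, and markers of rods, cones, Müller glia, amacrine and ganglion cells, progenitors, lens, pigment epithelium and red blood cells. Replicate numbers were not treated as pairs. The number of arrays limits the precision.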

Additional observations from a re-analysis of the deposited data

How the results depend on the processing

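The counts of members called were recomputed after quantile normalization, with a replicate block, with array weights (whose estimate did not converge), without the variance trend, with values under 5 raised to 5, with the mean of all probe sets of a gene, with other filters, on 2 groups alone, without each array and without the 4 arrays that stand apart (adult Plk3-KO 3, adult WT 3, P7 Plk3-KO 2, P7 WT 3). No setting turned the direction of a called difference. With each array left out, members rising from P0 to P7 numbered 6 to 8 in WT and 6 to 7 in Plk3-KO retinas, and from P7 to the adult 5 to 7 and 5 to 6, and 0 passed between genotypes. With the replicate block 8, 7, 7 and 6 rose (P0 to P7 in WT, P7 to adult in WT, then both in Plk3-KO), as without it. Deviations of arrays of equal number correlated in the adult at 0.49, 0.10 and 0.54, and those of unequal number at -0.63 to 0.41. At P7 equal numbers gave 0.38, -0.49 and -0.61, and unequal numbers -0.47 to 0.63. At P0 equal numbers gave 0.19, -0.06 and 0.10, and unequal numbers -0.25 to 0.13. After adjustment the methods' t-test called 2, 1, 3 and 1 members in these steps, of 1909, 86, 2193 and 113 probe sets called. The calls that were lost most often were Prkca from P7 to the adult in WT (17 of 29 settings), Nyx from P7 to the adult in Plk3-KO (16) and Nyx from P0 to P7 in WT retinas (6). Over all probe sets, 105 were called between adult genotypes without adult WT array 3, 338 without the 4 arrays and 1452 with array weights, none of them a member. With 3 arrays per group, no genotype difference at a single age could go below p = 0.1 in the exact permutation test.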

Other observations

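Markers of other retinal cells set the course of the bipolar genes in context. The 4 rod markers measured all rose from P0 to P7 in both genotypes, with medians of 4.15 in WT and 4.28 in Plk3-KO retinas, against 1.93 and 1.97 for the 9 bipolar genes. From P7 to the adult the rod median was 1.02 in WT retinas, with 2 of 4 called, and that of the bipolar genes 1.60, with 7 of 9 called. Of the 4 cone markers, 3 rose in the first step and 4 in the second in WT retinas, with medians of 2.47 and 1.73. Of the 4 amacrine markers, 3 rose and then 1, with medians of 1.42 and 0.63. Of the 4 Müller glia markers, 1 rose in the first step in WT retinas, and 2 rose and 1 fell in the second, with medians of -0.07 and 0.60. Of 3 ganglion cell markers, 0 was called in either step in WT retinas. All 4 progenitor markers fell in both steps in WT retinas, with a median of -3.53 in each. Of the 3 lens genes 0 rose and then 2 in WT retinas, and 0 of 2 red blood cell genes was called in either step there. Whether these courses differ from those of the bipolar genes was not tested.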
